A study of Caenorhabditis elegans with 4 samples.

Results

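The miR-44 family of *C. elegans* was followed in the small RNA of larvae at the first larval stage (L1). It comprised 4 miRNA genes chosen by name, cel-mir-44, cel-mir-45, cel-mir-61 and cel-mir-247, of which 3 were among the 148 miRNA names of the count table. cel-mir-247 had no row there and was not analysed here. Small RNA of whole animals was sequenced from the wild type N2 and the mutant *pry-1(mu38)*, with 2 libraries per strain. All animals were grown on standard plates at the same temperature and synchronized by repeated bleaching, and no agent was added. The paper states that the mutants grow slower, and L1 larvae for its quantitative PCR were grown longer for the mutant than for N2. It does not give the hours of growth of the sequenced larvae. *pry-1* codes for an Axin-like scaffold that restrains WNT signaling, and all cells of the mutant carry the *mu38* allele. No source states whether the libraries of a strain came from separate cultures, so the p-values measure only the spread between these libraries, which may be technical.

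miRNAs are short RNAs that guide an Argonaute protein to mRNAs, and they find their targets mainly through the seed, bases 2 to 8 from the 5′ end. miRNAs with the same seed form a family, since they can bind many of the same mRNAs and may replace each other. In *C. elegans*, mir-44 and mir-45 are known to promote the sperm fate in the hermaphrodite germline, and miR-61 is known as a target of LIN-12/Notch signaling that represses *vav-1* in vulval precursor cells. In Drosophila the same seed is carried by miR-279.

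The mature sequences are shown because miR-44 and miR-45 cannot be told apart by their reads, while miR-247 shares only its beginning with them. They were taken from the study's list of known miRNAs, and capitals mark the seed.
miR-44: uGACUAGAgacacauucagcu
miR-45: uGACUAGAgacacauucagcu
miR-247: uGACUAGAgccuauucucuucu
miR-44 and miR-45 differed at 0 bases. miR-247 was identical to them over the first 9 bases and at 11 of 21 positions compared from the 5′ end. Of the 157 listed miRNAs, these 3 carried the seed GACUAGA. miR-61, which belongs to the family by its seed, is named here without its sequence.

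The family is scattered over the genome. In WBcel235, mir-44 lies on chromosome II from 11890023 to 11890118 on the plus strand. It follows mir-43 after 15 bases, and mir-42 ends 4 bases before mir-43. mir-45 lies on the same chromosome from 11880944 to 11881039 on the minus strand, and 8983 bases separate it from mir-44. mir-61 lies on chromosome V from 11770060 to 11770156 on the minus strand, 44 bases from mir-250. mir-247 lies on chromosome X from 4756971 to 4757068 on the plus strand. None of these 4 genes overlaps a protein-coding gene, and the nearest ones are ZK930.2 for mir-44, *top-2* for mir-45, *sel-11* for mir-61 and *mls-2* for mir-247.

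A miRNA name has up to 3 rows in the count table, and the table does not say how the rows of a name differ. The row with more counts is called the abundant row here and the other the less abundant row. The columns were displaced against each other in stretches, so rows were placed by the read totals the study lists before use. The abundant rows of miR-44 and miR-45 each summed to 750044 over the 4 libraries, exactly the listed total. To reach it, the counts of N2 replicate 2 were read 1 row higher and those of both mutant libraries 1 row lower than those of N2 replicate 1. The counts under the names miR-44 and miR-45 were identical in all 4 libraries, so they are counted once below and called miR-44/45.

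miR-61 could not be checked by a total. It lies between miR-60 and miR-64, which met their totals with N2 replicate 2 displaced by 1 row and the other columns in place, and the same displacement was used for it. For miR-62 and miR-63 in the same stretch, the sums of 562 and 2514 were 0.531% and 0.238% below the listed totals. Both differences exceeded the 0.1% accepted for a match, so neither miRNA counted as matched. Within 3 rows of miR-61, the values of N2 replicate 2 were 2099, 427, 39114, 224, 801, 229099 and 76. Of these, 229099 belongs to miR-64, and 39114 was taken for miR-61.

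With miR-44/45 entered once, the counts summed to between 3164063 and 6467258 per library, and both mutant libraries were shallower than both wild-type ones. Rows checked by totals held 93.1% to 94.5% of these counts. *pry-1(mu38)* replicate 2 stood apart in its most abundant miRNA, with 30.1% of its counts on miR-228 against 19.7% to 21.3% in the other libraries.

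miR-44/45 was among the most abundant miRNAs of L1 larvae. N2 replicates 1 and 2 had 183920 and 235789 counts of it, and mutant replicates 1 and 2 had 120362 and 209973. Its share of all counts was 2.84% and 3.77% in the wild-type libraries and 3.80% and 4.73% in the mutant libraries. Both mutant shares lay above both N2 shares, but those of N2 replicate 2 (exact 95% interval 3.75% to 3.78%) and mutant replicate 1 (3.78% to 3.83%) were much closer to each other than the libraries of either strain were. These binomial (Clopper-Pearson) intervals cover counting error only. Ordered by size among all rows of a library, wherever they stood, miR-44/45 was number 11 and 7 in the wild-type libraries and number 7 and 5 in the mutant libraries.

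By mean level over the 4 libraries, miR-44/45 took place 6 among the placed miRNAs. Levels are counts per 1000000 after scaling by edgeR's TMM method (CPM), and mature miRNAs are of nearly equal length. miR-72 and miR-82 stood just above it, and miR-64 and miR-80 just below. The step down from miR-82 (87200 CPM) to miR-44/45 (36190 CPM) was wide, whereas miR-64 (35770 CPM) and miR-80 (33740 CPM) were close to it. Within a library, the ratio of miR-44/45 to miR-64 was 0.818 and 1.03 for N2 and 0.939 and 1.32 for the mutant, so the order of these neighbours changed between libraries of a strain. miR-228, the first in this order, had 220500 CPM.

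miR-61 was the lesser member. N2 replicates 1 and 2 had 30139 and 39114 counts of it, and mutant replicates 1 and 2 had 14079 and 36727. Its share of all counts was 0.466% and 0.625% in the wild-type libraries and 0.445% and 0.827% in the mutant libraries, which thus lay on either side of N2. It was number 22 and 20 by size among all rows of the N2 libraries and number 22 and 17 among those of the mutant libraries. miR-44/45 exceeded it 6.10-fold and 6.03-fold in the wild type and 8.55-fold and 5.72-fold in the mutant.

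**Figure D1:**
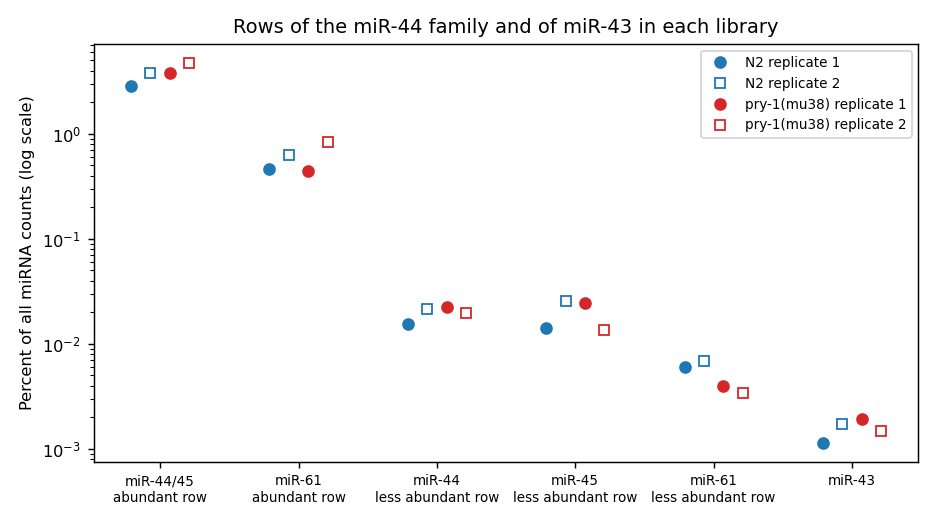
Share of all miRNA counts (percent, log scale) of the rows of the family and of miR-43, the neighbour of mir-44, in each of the 4 libraries. Circles are replicate 1 and squares replicate 2, with colour for strain; miR-44/45 lies between 2.84% and 4.73% and miR-61 between 0.445% and 0.827%, while the less abundant row of miR-61 is lower in each mutant library than in each N2 library.

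Together miR-44/45 and miR-61 made up 3.31% and 4.39% of all counts in the wild-type libraries and 4.25% and 5.55% in the mutant libraries. The mean share was 3.85% ± 0.767 for N2 and 4.90% ± 0.923 for the mutant (SD, n = 2 libraries per strain). The strains overlapped, since mutant replicate 1 lay below N2 replicate 2, and an exact two-sided permutation test of the libraries gave p = 0.667. With 2 libraries against 2, the smallest p this test can give is 0.333. Within the family, miR-61 took 14.1% and 14.2% of the counts of the N2 libraries, and 10.5% and 14.9% of those of the mutant libraries (exact permutation p = 1, n = 2 libraries per strain). The N2 libraries were nearly equal in this share, and the mutant libraries stood on both sides of them.

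Among 10 seed families, the miR-44 family took place 5 by average share, counting placed members only. Above it were miR-58/80 with 17.7%, miR-90 with 12.99%, miR-72 with 11.99% and miR-64 with 5.11% of all counts on average over the 4 libraries, against 4.38% for the miR-44 family. The family had 0.709 and 0.865 times the counts of the clustered miR-64 family in the wild type and 0.794 and 1.04 times in the mutant, so it exceeded that family in mutant replicate 2 alone. The heterochronic families, which time the divisions of seam cells, were lower in every library. The *lin-4* family had 0.0348% and 0.0625% of the counts for N2 and 0.0978% and 0.290% for the mutant, and the *let-7* family had 0.0104% and 0.00700% for N2 and 0.0111% and 0.0641% for the mutant, with the highest share of both in mutant replicate 2. The miR-51 family, next below the miR-44 family at 2.03%, was represented by 2 of 6 members and the miR-35 family by 5 of 8. Whether all members of the miR-51 family together would stay below the miR-44 family is unknown. Shares of families with members that could not be placed are lower bounds where the placed rows are right. That of the miR-35 family is no such bound, since it includes a miR-35 row of doubtful placement.

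**Figure D2:**
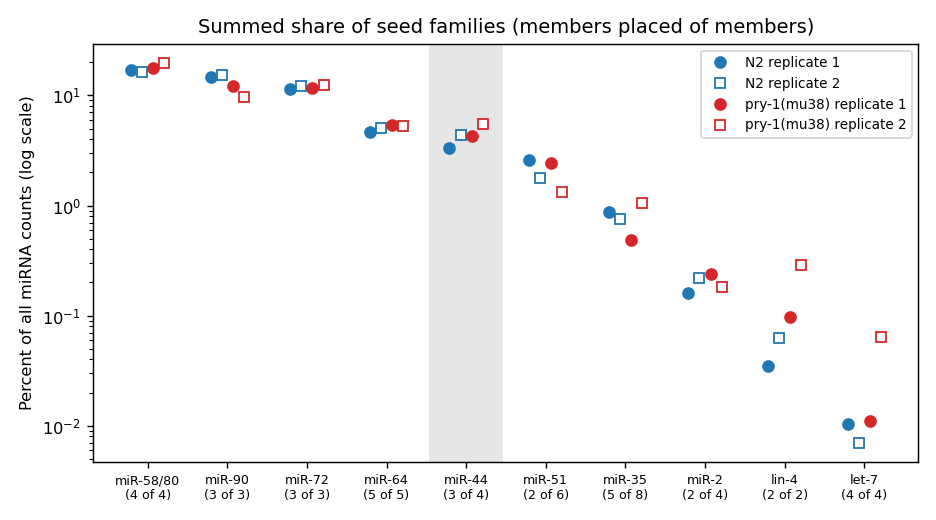
Summed share of all miRNA counts (percent, log scale) of 10 seed families in each library, with the number of members placed in the table under each name. The miR-44 family, on the grey band, lies between 3.31% and 5.55%, near the miR-64 family and below miR-58/80, miR-90 and miR-72. The share of the miR-35 family includes a miR-35 row of doubtful placement, which weighs most in mutant replicate 2.

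The strains were compared with edgeR's quasi-likelihood test over the 87 miRNAs that passed a filter on low counts. Of these, 1.15% passed an adjusted p-value of 0.05, and 11.5% had an unadjusted p-value under it; neither miR-44/45 nor miR-61 was among them. The single call was miR-2209c, at 13 counts in either N2 library against 0 in the mutant, in rows whose placement is doubtful. miR-44/45 had 30789 and 32760 CPM in the wild-type libraries and 39419 and 41784 CPM in the mutant libraries. The mean level was 31774 ± 1394 CPM for N2 and 40601 ± 1672 CPM for the mutant (SD, n = 2 libraries per strain). Its log2 fold change of 0.35 had a standard error of 0.24 and a 95% interval from -0.24 to 0.95 (Benjamini-Hochberg adjusted p = 0.582 by edgeR). After this scaling both mutant libraries were above both N2 libraries, as they were for 31% of the miRNAs tested, while the opposite order was found for 17.2%.

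miR-61 had 5045 and 5434 CPM in the wild-type libraries and 4611 and 7309 CPM in the mutant libraries, so the strains overlapped. Its log2 fold change of 0.19 had a standard error of 0.34 and a 95% interval from -0.65 to 1.03 (adjusted p = 0.889 by edgeR). The median log2 fold change of the 87 miRNAs was 0.12, with quartiles of -0.24 and 0.44, and both members lay between these quartiles. The intervals leave room for a rise of 0.95 for miR-44/45 and of 1.03 for miR-61 on the log2 scale.

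The values rested on *pry-1(mu38)* replicate 2 and on the scaling. Without that library, the log2 fold change was -0.01 for miR-44/45 and -0.51 for miR-61, and the median of all miRNAs moved from 0.12 to -0.16. With upper-quartile normalization the median was -0.17, and the log2 fold change was 0.08 for miR-44/45 and -0.04 for miR-61. With TMM scaling over the wider table described below, miR-44/45 had 28661 and 34696 CPM in the N2 libraries. The mutant libraries then had 35848 and 46603 CPM of it, so libraries of a strain lay further apart. Relative to the median of all miRNAs, miR-44/45 stood at 0.24 on the log2 scale with TMM, 0.25 with upper-quartile normalization and 0.15 without *pry-1(mu38)* replicate 2. Relative to the same medians, miR-61 stood at 0.07 with TMM, 0.13 with upper-quartile normalization and -0.34 without that library. Scaling shifts all log2 fold changes of a fit by nearly the same amount, which the median takes away again. Agreement between scalings in these relative values is therefore built in and is no evidence of a rise. No error was computed for them.

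**Figure D3:**
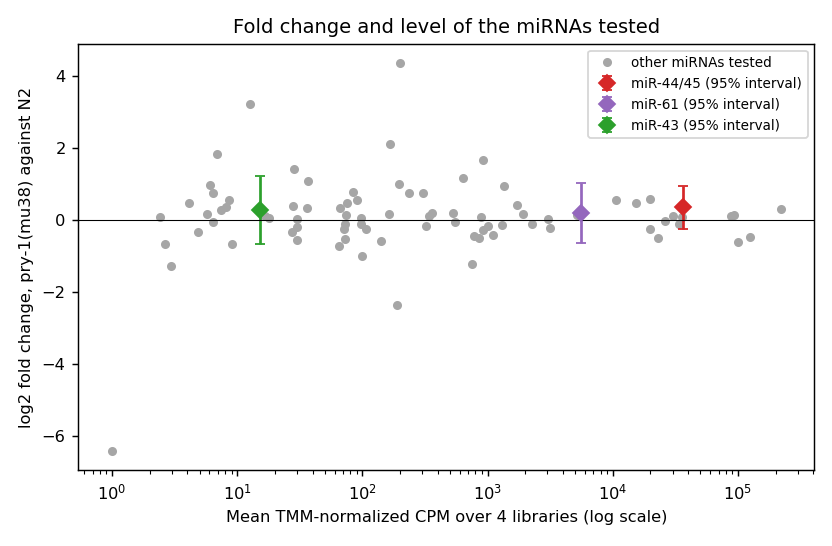
Log2 fold change between the strains (mutant over N2) against the mean level (TMM-normalized CPM over the 4 libraries, log scale) for the 87 miRNAs tested. miR-44/45, miR-61 and miR-43 carry 95% intervals from edgeR, all of which include 0, and the grey points are the other miRNAs, the lowest of them miR-2209c.

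The less abundant rows of miR-44 and miR-45 differed from each other, unlike the abundant ones. They were placed by the displacement of the matched rows on either side, which was the same from miR-43 to miR-48, and entered a wider table of 155 tested rows. Under miR-44 there were 1008 and 1354 such counts in the wild-type libraries and 709 and 883 in the mutant libraries. Under miR-45 there were 906 and 1615 in the wild-type libraries and 776 and 605 in the mutant libraries. Both names thus had counts of their own in all 4 libraries, far below those of the shared row.

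miR-44 made up 52.7% (exact 95% interval 50.4 to 54.9) and 45.6% (43.8 to 47.4) of the less abundant counts of both names in the wild type. In the mutant it made up 47.7% (45.2 to 50.3) and 59.3% (56.8 to 61.9). The libraries of a strain differed by more than counting error, and the strains overlapped (exact permutation p = 0.667, n = 2 libraries per strain). The less abundant row of miR-44 had a log2 fold change of 0.19 with a standard error of 0.27 (adjusted p = 0.820 by edgeR), and that of miR-45 had -0.05 with a standard error of 0.44 (adjusted p = 0.964 by edgeR). The sign of the former changed with upper-quartile normalization, at -0.04, and that of the latter without N2 replicate 2, at 0.37, and without *pry-1(mu38)* replicate 2, at 0.25. How the shared mature reads divide between the genes cannot be read from these rows.

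The less abundant row of miR-61 had 388 and 427 counts in the wild-type libraries and 125 and 151 in the mutant libraries, or 60.5 and 62.8 CPM against 37.2 and 33.5 CPM. These CPM follow the TMM scaling of the wider table, which differs from that used for the abundant rows above. Neither mutant library reached the level of an N2 library. This order was found for 17.4% of the rows of the wider table and the opposite order for 25.2%. The log2 fold change of -0.80 had a standard error of 0.31 and a 95% interval from -1.64 to 0.04 (adjusted p = 0.401 by edgeR), and did not pass the threshold. Among the 155 rows tested there, 0% passed it, and 7.1% (11 rows) had an unadjusted p-value under 0.05. The log2 fold change stayed between -1.03 and -0.77 under the other scalings, filters and tests, and between -1.004 and -0.77 when single libraries were omitted.

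The ratio of abundant to less abundant row does not depend on how libraries are scaled. For miR-61 it was 77.7 and 91.6 in the wild-type libraries and 112.6 and 243.2 in the mutant libraries. The strains did not overlap, and the exact permutation p of 0.333 (n = 2 libraries per strain) is the smallest these libraries can give. miRNAs outside the family were not examined for this ratio, so the order is not shown to be particular to miR-61. Mutant replicate 2 had by far the highest ratio, and it was also the library with the highest CPM of the abundant row. Both rows of miR-61 were placed by neighbouring rows without a total, so this ratio rests on their placement. For miR-44/45, the abundant row held 96.1 and 79.4 times the counts of both less abundant rows in the wild type and 81.05 and 141.1 times in the mutant. These values overlapped between strains (exact permutation p = 0.667, n = 2 libraries per strain).

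**Figure D4:**
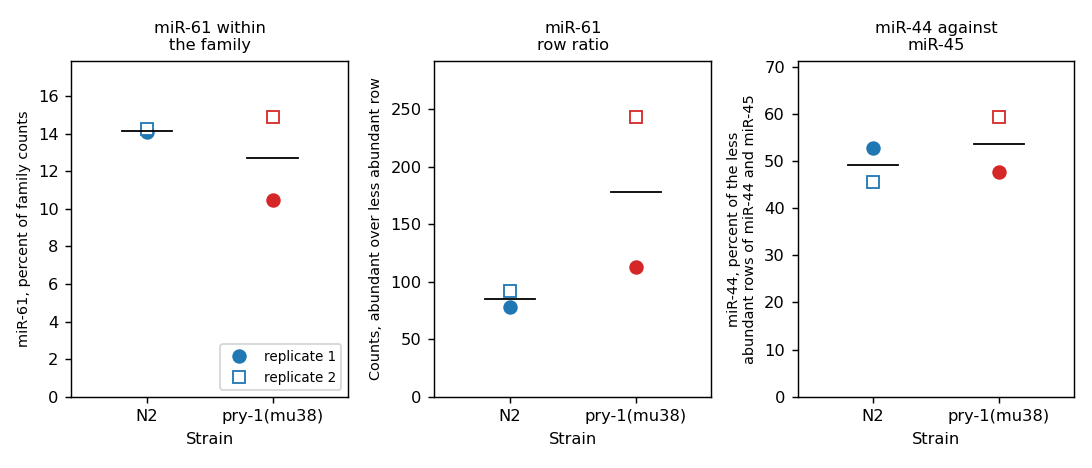
Measures within a library that need no scaling, by strain, with circles for replicate 1, squares for replicate 2 and a line at the mean of 2 libraries. Left, miR-61 as a percent of the counts of the family; middle, abundant over less abundant row of miR-61, from 77.7 to 91.6 for N2 and from 112.6 to 243.2 for the mutant; right, miR-44 as a percent of the less abundant rows of miR-44 and miR-45.

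The genomic neighbours of the members could be followed in part. miR-43 belongs to the miR-2 seed family and lies 15 bases before mir-44. Its rows met the listed total, with 74 and 107 counts in the wild-type libraries and 61 and 66 in the mutant libraries. miR-44/45 exceeded it 2485-fold and 2204-fold in the wild type and 1973-fold and 3181-fold in the mutant. The less abundant row of miR-44 alone exceeded it 13.6-fold and 12.65-fold in the wild type and 11.6-fold and 13.4-fold in the mutant. The counts under these names thus differed widely in each library. Those of miR-44/45 cannot be assigned to mir-44 alone, so the difference between the adjacent genes remains unknown. miR-43 had a log2 fold change of 0.27 with a standard error of 0.38 and a 95% interval from -0.67 to 1.21 (adjusted p = 0.857 by edgeR). Its sign changed with upper-quartile normalization, at -0.07, and without *pry-1(mu38)* replicate 1, at -0.01. The rows of miR-42, a member of the miR-35 family, and of miR-250, the neighbour of mir-61, could not be placed and are not given.

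Across the 4 libraries, the placed miRNAs whose pattern was nearest to that of miR-44/45 were miR-231, miR-4809 and miR-54. Likeness was measured as the root mean square difference of log2 CPM, each miRNA centred on its mean over the 4 libraries, among 80 miRNAs with at least 10 counts in every library. The distance was 0.0829 for miR-231, 0.106 for miR-4809 and 0.114 for miR-54, with a median of 0.364 over the 80. miR-61 came at place 15 with 0.230. miR-231 had 56.4 and 60.7 CPM in the wild-type libraries and 66.2 and 82.4 CPM in the mutant libraries, far below miR-44/45 in level. miR-4809 had only 21 and 24 counts in the wild-type libraries and 15 and 23 in the mutant libraries, few enough for counting error to affect its distance. These distances describe 4 libraries that share their scaling, and no test was made of them.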

How the data were processed

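Small RNA came from whole L1 larvae, 2 libraries per strain. The authors deposited unnormalized read counts by miRNA row. Per the study's methods, reads with a perfect genome match were compared with miRBase (WBcel235) and miRDeep2 was used. The submitters' processing notes also name BWA and DESeq. Versions, trimming and the treatment of reads with several matches are not given in the sources used here. Columns were assigned to libraries by strain letter and replicate number, with 0 columns unassigned.

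N2 replicate 1 was kept on its rows. For the other libraries, counts within 3 rows were searched for a combination that met the read total in the study's list. Displaced matches were made in several ways. Some had at least 1000 reads and a single combination. Others, among them miR-43, miR-44 and miR-45, met their total at the only displacement shared with a successive miRNA that met its own. The rest took the displacement of a neighbour, where a difference of 0.1% was accepted. Of 126 names with a total, 88 were matched. In simulated tables, whose totals were exact, the rule matched 84.2% of names, and 0.141% of the matches were wrong. Simulated counts were drawn around those of N2 replicate 1, and vacated cells were filled at random. The real table differs in this, so the error rate need not hold for it. The simulation covered the match by totals only, not the placement by rows on both sides. miR-61 and the less abundant rows were placed by matched rows on both sides with the same displacement. A miR-35 row placed this way had 24181 counts for mutant replicate 2, but only 24, 15 and 7 for the other libraries. Its placement is doubtful, although it stayed in the wider table. Matched rows on both sides therefore do not ensure that a cell is on its right row. Rows between miR-2 and miR-2209c were kept out of the wider table, because totals there go against the displacement.

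Counts were fitted with edgeR 4.0.16 in R 4.3.3 (TMM, filterByExpr with a minimum of 10 counts, glmQLFit, glmQLFTest, two-sided, Benjamini-Hochberg), with library sizes over all rows and no covariate. The script was tested on simulated data. The standard error is the log2 fold change over the square root of F. DESeq2 1.42.0 was an alternative, beside others for scaling, filter, test, rows, replicate block and libraries. The row sets with neighbours added, without miR-61 and without miR-2209c, and all alternatives for the less abundant rows and miR-43, were added after seeing the data. Members and lists were chosen with earlier results of these data known. The text names the members, their genomic neighbours, 10 seed families, the nearest miRNAs by level and by pattern, and the first by level. miR-2209c was named after its values were seen. Positions come from Ensembl release 115, since the coordinates in the study's list differ from that annotation.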

Additional observations from a re-analysis of the deposited data

How the results depend on the processing

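With 2 libraries per strain, the spread of each miRNA rests on a single difference within each strain. The log2 fold change of miR-44/45 stayed between 0.08 and 0.38 under 14 alternatives (adjusted p between 0.284 and 0.925 with edgeR or DESeq2). It was -6.27 in the rows as deposited, where counts of different miRNAs share a row. That of miR-61 stayed between -0.0377 (upper-quartile normalization) and 0.24 under 13 alternatives (adjusted p between 0.681 and 0.999 with edgeR or DESeq2), and was 1.28 in the rows as deposited. With single libraries left out, in edgeR fits that assume the lone library to vary like those of the other strain, the range was -0.0116 to 0.437 for miR-44/45 and -0.507 to 0.522 for miR-61. It was -0.0150 to 0.413 for miR-43, 0.0170 to 0.374 for the less abundant row of miR-44 and -0.610 to 0.372 for that of miR-45. Upper-quartile normalization gave -0.0688 for miR-43 and -0.0383 for the less abundant row of miR-44.

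The difference in family share, 1.05 percentage points, was -1.01 in the rows as deposited, 1.83 without miR-228, and ranged from 0.397 to 1.70 with single libraries left out. The number of miRNAs past the threshold was 1. It was 0 with at least 10 counts in every library, in the rows as deposited, without miR-228, with the rows placed by neighbours added and without miR-2209c (8, 15, 8, 11 and 9 at an unadjusted p under 0.05, edgeR). It was 3 with DESeq2's Wald test, 4 with edgeR's exact test, 2 with the robust option, and 0 to 2 with single libraries left out. The first and last settings that gave 0 removed miR-2209c before the test, and for the others the cause was not tested. In none of these alternatives was a member called.

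The replicate numbers are not described as shared cultures or days, and the deviations of equally numbered libraries correlated at 0.307. A replicate block left 0 miRNAs past the threshold (16 with an unadjusted p under 0.05, edgeR), and the log2 fold change was 0.354 for miR-44/45 (edgeR adjusted p = 0.284) and 0.149 for miR-61. For miR-247 no value could be computed, as it had no row.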
